A study of Rattus norvegicus with 224 samples.

Results

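The solute carrier genes encode membrane proteins that move amino acids, sugars, ions, metals, vitamins and metabolites across the cell surface and the membranes of organelles. The members described here were all measured genes whose symbol in the platform's probe annotation starts with Slc and a digit, with Slc2a1, Slc16a3, Slc7a5 and Slc1a5 left out. They numbered 138 of the 142 such genes measured and of 6502 genes with a symbol in all. Where a gene had several probes, which held for 16 members, the first probe in the table stood for it. Slc7a6os and Slc4a1ap entered by their symbols although they encode no transporter: they are named for a neighbouring gene and for an adaptor protein.

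The cells were rat aortic smooth muscle, grown from explants of 1-day-old pups and used at passages 8 to 11, and their total RNA was measured on 224 Agilent 2-colour arrays. All cells were made quiescent in low serum. Groups were formed by 100 nM insulin or its vehicle, by 25 or 5 mM glucose, and by rapamycin at 0.01, 1 or 100 ng/mL, paclitaxel at 0.01, 1 or 1000 ng/mL, or their solvent DMSO, for 6 or 24 h after dosing. Each of the 56 groups held 4 arrays, named A, B, C and D after their replicate run, so a drug dose had 16 arrays at an hour and an insulin or glucose arm had 56. Nothing in the labels says that runs came from separate animals or cultures, so the p-values measure the spread between these arrays. Every dish was an explant culture taken through many divisions, and in such bulk RNA fewer cells of a type and less RNA per cell cannot be told apart.

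Rapamycin binds FKBP12 and inhibits the mTORC1 kinase, which senses amino acids and insulin, and paclitaxel stabilises microtubules; both are coated on stents to limit smooth muscle growth. Many carriers of the plasma membrane work as exchangers or use the sodium gradient, and those of the Slc7 family that carry large amino acids need the heavy chain Slc3a2 to reach the surface. Slc7a1, Slc7a11, Slc3a2 and Slc38a2 are known targets of ATF4, the transcription factor of the response to amino acid shortage and stress in mammals, while sodium-calcium exchangers help to set the calcium that drives contraction.

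On each array the deposited scores had mean 0 and SD 1, so every difference below is in array SDs and none is a log2 fold. Genes were centred close to 0 over the arrays, so a score compares a gene with its own average, and levels cannot be set against one another across genes. The direction is likely cells over the pooled pup RNA that shared each array; were it the reverse, every higher below would read lower. Array medians lay between -0.099 and 0.094. Across pairs of arrays 1.46% correlated under -0.3, the lowest at -0.526. Turning the sign of every score would leave these correlations unchanged, so they cannot settle the direction. Of the defining smooth muscle genes 6 of 8 were in the table, but Acta2 and Myh11 were not, and 4 of 5 endothelial, 3 of 4 fibroblast and 2 of 4 leukocyte markers were in it too; centred scores cannot show which were abundant. A pair of run A arrays, insulin and vehicle with 0.01 ng/mL rapamycin in 25 mM glucose at 6 h, held near-identical scores, with 99.4% of values within 0.01. Leaving out the array labelled insulin kept all 8 of the insulin calls at 6 h given below. Which of the pair holds the wrong scores is not known, and the vehicle array was not left out in turn. No such check was made for the other comparisons that use this pair. A gene was called when limma's adjusted p, taken over all 11575 features in a comparison, was under 0.05.

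Of the 138 members, 63 (45.7%) were called in at least 1 of 13 main comparisons and 75 in none, against 52.4% of all features called in at least 1. The counts of members called by role below stand against that same 52.4%. Time moved the largest number: 50 members (36.2%) differed between 24 and 6 h, 23 higher and 27 lower at 24 h, against 41.3% of all features (19.5% higher, 21.8% lower). Glucose at 24 h came next, with 15 members (10.9%), 6 higher and 9 lower at 25 than at 5 mM, against 10% of features (5.45% higher, 4.56% lower). At 6 h glucose called 3 (2.17%; 2 higher, 1 lower), against 3.53% (1.57% higher, 1.96% lower). Insulin called 8 at 6 h (5.8%; 7 higher, 1 lower), against 7.07% (3.59% higher, 3.48% lower). At 24 h it called 6 (4.35%; 4 higher, 2 lower), against 3.98% (2.57% higher, 1.42% lower).

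With the 4 runs taken as the replicates, limma called 0 members for insulin at either hour and for glucose at 24 h (15 members at each hour and 17 had an unadjusted p under 0.05), 1 for glucose at 6 h and 5 for time, and 12 of the 135 calls described here held. Over all 11575 features the same fit also called 0 for insulin at either hour and for glucose at 24 h. It gave an unadjusted p under 0.05 to 1611 features for insulin at 6 h, 1108 at 24 h and 1591 for glucose at 24 h. It called 206 features for glucose at 6 h and 300 for time. Of the 12 member calls that held, 2 were for 100 ng/mL rapamycin against DMSO at 6 h. Another 4 were for rapamycin against paclitaxel at 6 h, 1 for glucose at 6 h and 5 for time. Against DMSO, 100 ng/mL rapamycin called 9 members at 6 h (7 higher, 2 lower; 6.52%, against 5.08% of features, 2.9% higher and 2.18% lower) and 1 at 24 h (lower; 2.25% of features, 0.855% higher and 1.4% lower). At 1 ng/mL it called 2 at 6 h (1 higher, 1 lower; 1.54% of features, 0.821% higher and 0.717% lower) and 1 at 24 h (lower; 1.47% of features, 0.259% higher and 1.21% lower). Paclitaxel at 1000 ng/mL called 0 at 6 h (0.294% of features, 0.164% higher and 0.13% lower). In that comparison limma gave 13 members and 837 of 11575 features an unadjusted p under 0.05. At 24 h paclitaxel called 1 (lower, against 1.32% of features, 0.484% higher and 0.838% lower). Rapamycin at 100 ng/mL against paclitaxel at 1000 ng/mL called 10 at 6 h (6 higher, 4 lower; 6.72% of features, 3.98% higher and 2.74% lower) and 8 at 24 h (6 higher, 2 lower; 6.62% of features, 3.22% higher and 3.4% lower). In all, 12 members differed from DMSO under some drug and dose, a count whose share over all features was not taken. At 0.01 ng/mL of either drug and at 1 ng/mL paclitaxel, 0 members and 0% of features were called at either hour. There limma gave an unadjusted p under 0.05 for 2 to 8 members, a count not taken over all features. The comparisons with DMSO share its arrays, and the drug against drug comparisons share theirs with them.

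**Figure D1:**
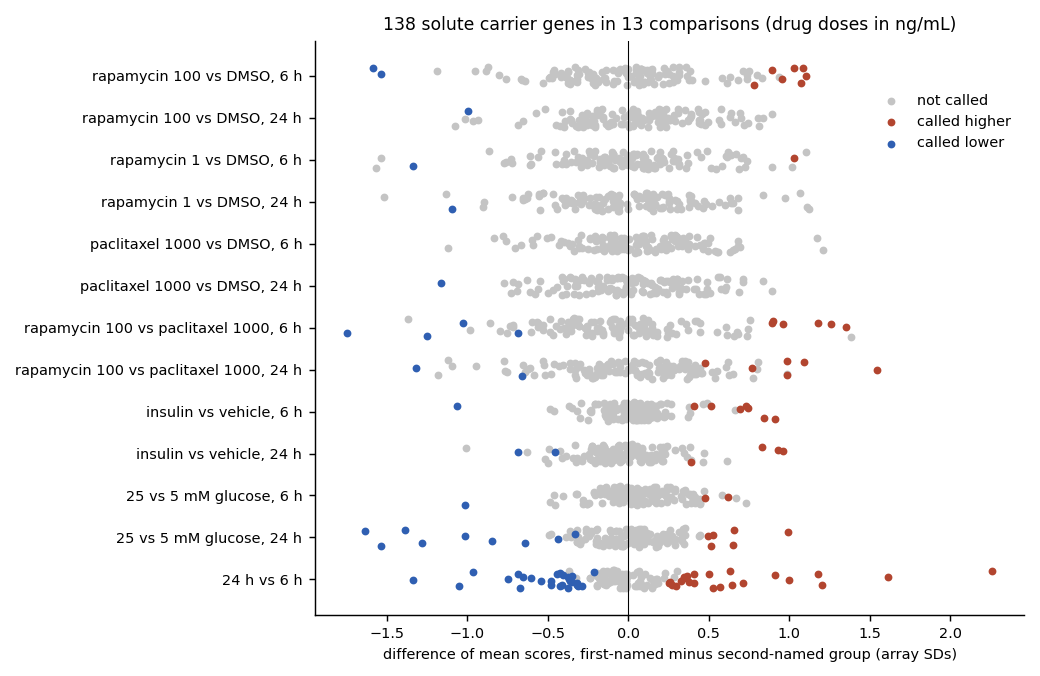
Differences of mean scores (array SDs) of the 138 solute carrier genes in the 13 main comparisons, 1 point a gene, with called genes in red (higher) and blue (lower) and the rest in grey. Time has 50 coloured points and glucose at 24 h 15, while the drug comparisons with DMSO have between 0 and 9.

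Amino acid carriers held 23 members, of which 10 were called in some main comparison. At 24 h 3 of them were lower at 25 than at 5 mM glucose and 1 was higher, and the 3 were the cationic carrier Slc7a1, the cystine-glutamate exchanger Slc7a11 and the heavy chain Slc3a2. A mitochondrial carrier of pyrimidine nucleotides, Slc25a33, and the zinc importer Slc39a10 were also lower. Each of these 5 had a larger difference in run B and in run D than in run A or run C, where it was smaller or of the opposite sign.

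Their promoters are shown because these 4 genes had the largest falls with glucose. The bases are the 250 before each gene's start in RefSeq's GRCr8 annotation, in the gene's own direction: Slc7a1 at chr12:11664238-11664487 (plus strand), Slc7a11 at chr2:136668265-136668514 (minus), Slc3a2 at chr1:215039671-215039920 (minus) and Slc25a33 at chr5:165502974-165503223 (minus). Capitals mark a match to TGATGNAA, the letters of an amino acid response element that ATF4 is known to bind, searched on both strands.
Slc7a1: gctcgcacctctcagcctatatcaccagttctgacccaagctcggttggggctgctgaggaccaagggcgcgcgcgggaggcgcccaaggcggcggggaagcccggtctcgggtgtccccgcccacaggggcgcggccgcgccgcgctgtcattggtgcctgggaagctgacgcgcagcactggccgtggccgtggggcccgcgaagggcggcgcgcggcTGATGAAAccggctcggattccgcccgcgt
Slc7a11: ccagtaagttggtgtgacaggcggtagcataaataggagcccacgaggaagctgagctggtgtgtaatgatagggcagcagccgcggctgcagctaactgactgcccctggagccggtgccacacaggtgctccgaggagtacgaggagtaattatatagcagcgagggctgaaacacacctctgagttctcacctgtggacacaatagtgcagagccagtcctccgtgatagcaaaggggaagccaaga
Slc3a2: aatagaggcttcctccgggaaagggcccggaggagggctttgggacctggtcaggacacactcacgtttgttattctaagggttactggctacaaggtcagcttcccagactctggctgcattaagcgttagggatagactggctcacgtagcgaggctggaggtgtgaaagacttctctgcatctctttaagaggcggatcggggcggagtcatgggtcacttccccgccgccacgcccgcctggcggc
Slc25a33: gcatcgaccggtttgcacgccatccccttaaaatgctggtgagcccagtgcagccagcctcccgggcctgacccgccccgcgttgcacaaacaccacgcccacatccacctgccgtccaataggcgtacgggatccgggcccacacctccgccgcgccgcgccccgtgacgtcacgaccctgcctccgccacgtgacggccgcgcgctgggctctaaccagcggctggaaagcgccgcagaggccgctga

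Of these windows 1 of 4 held the match, in Slc7a1 at 30 bases before the start. Among the 118 members with a promoter in the table, 2 held it (1.69%), the other being Slc9a9, against 3.4% of 33469 promoters of the same length. The E-box CACGTG was in 12 members (10.2%), Slc25a33 among them, against 5.59%. TGCNCNC, a looser form of the core of metal response elements, was in 61 (51.7%), against 43.4%. The shares set beside the members' are over all 33469 promoters, whether or not the gene was measured. A match is a description of letters only.

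Slc7a1 showed the widest spread by run. In run B its scores at 24 h had a lowest, median and highest value of -1.54, -0.652 and 0.995 over the 14 arrays at 25 mM glucose, against 0.715, 4.09 and 5.96 over the 14 at 5 mM. In run D they were -2.77, -0.583 and 0.459 at 25 mM and -1.63, 1.66 and 3.41 at 5 mM. The ranges met only between 0.715 and 0.995 in run B and overlapped more in run D, with the 25 mM arrays low in both. In run A the medians were -1.08 at 25 mM and -1.37 at 5 mM, and in run C 0.385 and -0.706, with wide overlap in each. The differences, 25 minus 5 mM, were thus 0.000431, -4.54, 0.736 and -2.34 in runs A, B, C and D. Their mean was -1.54 (SE 0.340, adjusted p = 0.000514), and the test that the 4 run values are equal gave an adjusted p of 8.68e-07.

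Slc7a11, which imports cystine for glutathione, had a median of -0.536 at 25 mM and 2.61 at 5 mM in run B, and of -0.803 and 3.03 in run D. In runs A and C the order was turned, with medians of 0.574 at 25 mM and -0.112 at 5 mM, and of -0.178 and -0.590. The run differences were 0.902, -2.99, 0.424 and -3.46 for A to D, with a mean of -1.28 (SE 0.283, adjusted p = 0.00047) and an adjusted p of 1.46e-07 for unequal runs. Slc3a2 was lower at 25 mM in all 4 runs, by -0.0611, -2.93, -0.530 and -2.02, with a mean of -1.39 (SE 0.234, adjusted p = 2.95e-06). For Slc25a33 the medians were -0.499 at 25 mM and 3.00 at 5 mM in run B, and -0.509 and 2.78 in run D, while run A gave -0.325 and -0.342 and run C -0.118 and -0.184. Its mean difference was -1.63 (SE 0.253, adjusted p = 3.28e-07). Slc39a10 had run differences of 0.332, -2.13, -0.0551 and -2.20.

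Slc38a2, a sodium-coupled carrier of neutral amino acids, was not called on average (-0.245, adjusted p = 0.62), and its runs went opposite ways: 1.33, -1.92, 1.40 and -1.79 for A to D (adjusted p = 5.19e-08 for unequal runs). Unequal runs were called for 9 members in all, against 4.39% of features. The others were the multivitamin carrier Slc5a6, the sodium-potassium-chloride cotransporter Slc12a2 and the copper transporter Slc31a2. At 6 h 0 members had unequal runs with glucose, against 0.00864% of features. Without run B or without run D the calls of Slc7a1 and Slc7a11 ended (adjusted p up to 0.365 and 0.324), and that of Slc39a10 ended without run D (0.128). Slc25a33, Slc3a2, Slc38a10 and Slc35e3 were called whichever run was left out, but not with the 4 runs as replicates, with differences between -2.22 and -1.03 for Slc25a33 and between -1.83 and -0.870 for Slc3a2.

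**Figure D2:**
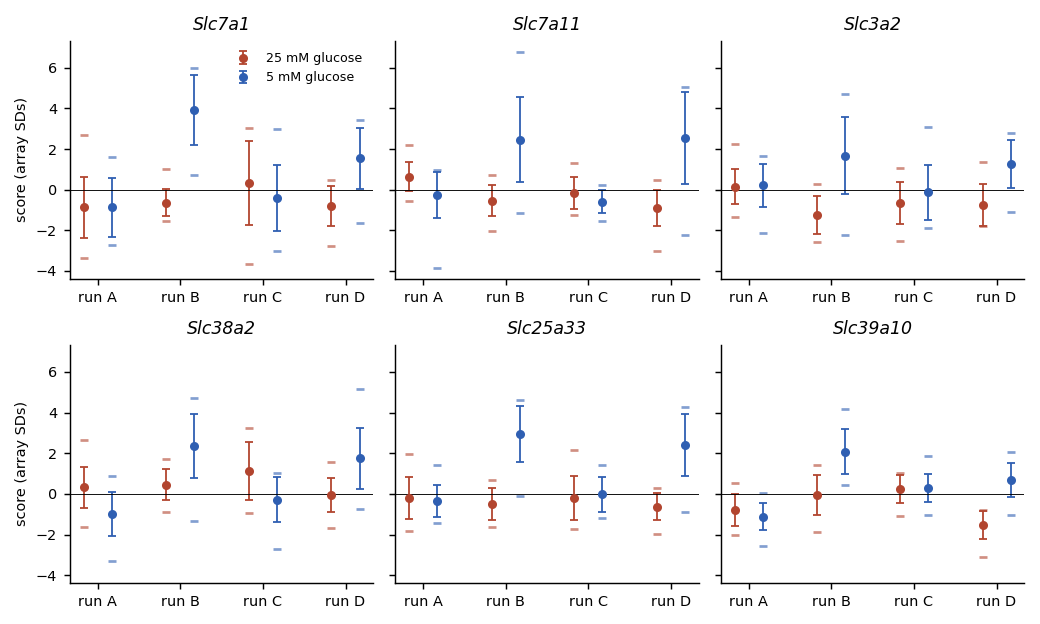
Scores (array SDs) of 6 members at 24 h in each replicate run, 25 mM glucose in red left of 5 mM in blue, as mean ± SD of 14 arrays with dashes at the lowest and highest array. In runs B and D the 5 mM means of all 6 genes lie above the 25 mM means, while in runs A and C the pairs of Slc7a1, Slc3a2, Slc25a33 and Slc39a10 differ by at most 0.736 and those of Slc38a2 are turned round.

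Genes of the ATF4 axis, a companion list chosen with earlier results known, moved in the same runs. Of 10 measured, 8 were lower at 25 than at 5 mM glucose at 24 h and 0 higher, against 4.56% of features lower and 5.45% higher. The list's median difference was -1.24, against -0.0068 over all features. Trib3, a stress-induced pseudokinase, had run differences of -0.103, -7.80, 0.346 and -3.75, and Atf4 itself 0.494, -3.72, 0.267 and -1.85. The stress factors Ddit3 and Atf3, the glutathione-degrading enzyme Chac1, the stress regulator Sesn2, asparagine synthetase Asns and the serine synthesis enzyme Phgdh were the other 6. The kinases Eif2ak3 and Eif2ak4 were not called (0.0520 and 0.0119). The part of that axis in the carriers' difference was not tested.

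The glucose differences of these carriers also depended on the hour. At 24 minus 6 h, the difference between 25 and 5 mM was -1.98 for Slc7a1 (adjusted p = 0.00665), -1.70 for Slc7a11 (0.00471), -1.24 for Slc3a2 (0.0166) and -1.99 for Slc25a33 (9.03e-05). Slc7a7, a light chain that pairs with Slc3a2 to exchange cationic for neutral amino acids, was the fifth at -1.01 (0.000257) and the orphan carrier Slc35e3 the only member with a positive value, 0.570 (0.0412). These 6 of 138 (4.35%; 1 higher, 5 lower) compare with 2.4% of features (1.09% higher, 1.31% lower). All 6 calls ended without run B and without run D. At 6 h Slc7a7 was higher at 25 mM, by 0.622 (SE 0.137, adjusted p = 0.00117), with a median of 0.005 over 56 arrays at 25 mM and -0.540 over 56 at 5 mM; the call ended without run D (0.171).

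Slc38a2 was among the 2 members that fell with rapamycin at 6 h. Its scores had a lowest, median and highest value of -4.35, -1.57 and 0.994 over the 16 arrays at 100 ng/mL, against -1.90, 0.033 and 1.85 over the 16 DMSO arrays. At 1 ng/mL they were -3.70, -1.82 and 1.25. The arms overlapped, and 7 of 16 arrays at the top dose lay below every DMSO array. The difference at 100 ng/mL was -1.54 (SE 0.469, adjusted p = 0.0324), negative in all 4 runs and in all 4 combinations of insulin and glucose. At 1 ng/mL it was as large, -1.57, but missed the threshold (adjusted p = 0.0583), and at 24 h with 100 ng/mL it was -0.960 (adjusted p = 0.355). The call at 100 ng/mL ended without run A, B or D (adjusted p up to 0.268).

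Slc38a2 was lower with insulin as well. At 6 h its median was -0.915 over 56 insulin arrays and 0.157 over 56 vehicle arrays, a difference of -1.06 (SE 0.251, adjusted p = 0.00186). The difference was negative in each of the 7 drug conditions, between -1.81 and -0.819. By run it was -1.77, 0.0451, -2.16 and -0.362 (adjusted p = 0.00285 for unequal runs), and the call ended without run A or run C. Members with unequal runs under insulin numbered 2 at 6 h (1.87% of features), the other being Slc31a2, and 4 at 24 h (1.64%): Slc7a1, Slc27a3, Slc29a1 and the taurine carrier Slc6a6. Slc7a1 at 24 h had insulin differences of -2.09, 0.788, -2.66 and -0.0651 in runs A to D, so that it was low with insulin in runs A and C.

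Time moved 7 of the 23 amino acid carriers, 5 higher and 2 lower at 24 than at 6 h, against 41.3% of all features (19.5% higher, 21.8% lower). Slc38a2 was 1.18 higher (SE 0.177, adjusted p = 5.3e-09), with medians of 0.362 over the 112 arrays at 24 h and -0.645 over 112 at 6 h. Slc7a11 was 0.913 higher (SE 0.200), Slc7a1 0.646 (SE 0.241) and Slc7a7 0.525 (SE 0.0970). For Slc7a1 the runs were -1.07, 3.27, -0.505 and 0.887, and without run B the difference turned to -0.229 (adjusted p = 0.458), so its direction rested on that run; the call also ended without run D. Slc7a11 lost its call without run B.

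Ion and pH carriers held 17 members, 11 of them called in some main comparison. Slc24a3, a potassium-dependent sodium-calcium exchanger, and Slc8a1, the main plasma membrane sodium-calcium exchanger of muscle, were each called in 5 comparisons, more than any other member. Slc24a3 was lower with rapamycin at 6 h. Its lowest, median and highest scores were -3.13, -2.00 and 0.269 at 100 ng/mL and -4.06, -1.72 and 0.247 at 1 ng/mL, against -2.45, -0.397 and 2.27 in DMSO. The arms overlapped, and 7 of 16 arrays at 100 ng/mL lay below all DMSO arrays. The differences were -1.58 (SE 0.365, adjusted p = 0.00217) at 100 ng/mL and -1.33 (SE 0.365, adjusted p = 0.0286) at 1 ng/mL. Run C carried the most, -3.57 at 100 ng/mL against -0.942, -1.18 and -0.648 in A, B and D, and without it the value was -0.922 (adjusted p = 0.222). At 1 ng/mL the call also ended without run A or D.

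At 24 h the order of the Slc24a3 means was different: 1.04 at 100, 1.66 at 1 and 0.587 at 0.01 ng/mL rapamycin, against 0.595 in DMSO, and none of these differed from DMSO past the threshold (smallest adjusted p 0.126, at 1 ng/mL). Slc24a3 was 1.61 higher at 24 than at 6 h (SE 0.138, adjusted p = 1.67e-21), in every run. Insulin at 6 h gave 0.694 (SE 0.195, adjusted p = 0.0121), which ended without run C or D, and 25 against 5 mM glucose at 24 h -0.846 (SE 0.195, adjusted p = 0.000924), which ended without run B (adjusted p = 0.168). The second Slc24a3 probe did not follow the first: their scores correlated at -0.0345 over the arrays, and it was called in none of these 5 comparisons, with -0.940 for 100 ng/mL rapamycin at 6 h (adjusted p = 0.0862) and -0.168 for time (adjusted p = 0.304).

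Slc8a1 was the member that differed with paclitaxel. At 24 h its lowest, median and highest scores were -3.04, -1.72 and 0.249 over the 16 arrays at 1000 ng/mL, against -2.07, -0.475 and 1.87 in DMSO. The paclitaxel arm lay low, with 5 of its 16 arrays below every DMSO array. The difference was -1.16 (SE 0.285, adjusted p = 0.0109), negative in all runs (-0.667, -1.12, -1.37 and -1.48) and in all 4 combinations of insulin and glucose. It was not called at 6 h (-0.432, adjusted p = 0.82), and the change of the paclitaxel difference with the hour was called for 0 members (0.00864% of features). The call ended without run C or run D (adjusted p up to 0.191). Of 6 smooth muscle markers measured, Myl9 (-4.58) and Tagln (-4.30) fell in the same comparison, where 0.838% of features were called lower. Cnn1 (-0.582), Des (-0.606), Smtn (-0.0853) and Cald1 (-0.0484) were not called. The part of these 6 markers in the Slc8a1 difference was not tested.

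With 100 ng/mL rapamycin set against 1000 ng/mL paclitaxel at 24 h, Slc8a1 was 1.55 higher (SE 0.285, adjusted p = 2.17e-05). The call held whichever run was left out. It ended with the 4 runs as replicates, a fit that called 0 members and 360 features in this comparison. The Slc8a1 median was 0.0885 in the rapamycin arm and -1.72 in the paclitaxel arm. Beside it Tagln (4.59) and Myl9 (3.87) were higher, 2 of the 6 markers, against 3.22% of features higher. Glucose also moved it: at 6 h the lowest, median and highest scores were -2.41, -0.058 and 1.41 at 25 mM, against -0.380, 0.765 and 2.04 at 5 mM. The difference was -1.01 (SE 0.152, adjusted p = 7.87e-07), negative in every run and in each of the 7 drug conditions, and it was called whichever run was left out. At 24 h it was -0.640 (SE 0.152, adjusted p = 0.00138), ending without run C (adjusted p = 0.0973). For 24 against 6 h Slc8a1 was at -0.650 (SE 0.108, adjusted p = 9.78e-08), whichever run was left out.

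The chloride-bicarbonate exchanger Slc4a3 was the member most often called with the drugs, in 4 drug comparisons. At 6 h its lowest, median and highest scores were -1.12, 0.601 and 3.00 at 100 ng/mL rapamycin and -0.123, 0.917 and 2.21 at 1 ng/mL, against -1.35, -0.125 and 0.879 in DMSO. Both rapamycin arms lay high with overlap, 9 of 16 arrays at 1 ng/mL being above every DMSO array. The differences were 1.11 (SE 0.257, adjusted p = 0.00233) at 100 ng/mL and 1.03 (SE 0.257, adjusted p = 0.0127) at 1 ng/mL, positive in all 4 runs. Of the 4 combinations of insulin and glucose, 3 were positive at 100 ng/mL, with vehicle in 5 mM glucose at -0.0555, and 4 at 1 ng/mL. At 100 ng/mL the runs gave 0.333, 0.472, 1.50 and 2.12, and the call ended without run C or D (adjusted p up to 0.168). At 1 ng/mL it ended without run A or C. Against paclitaxel Slc4a3 was 1.18 higher at 6 h (adjusted p = 0.000543), whichever run was left out, and 0.767 higher at 24 h (adjusted p = 0.0494), where leaving out any run ended the call.

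Other ion carriers differed in fewer comparisons. Rapamycin against paclitaxel at 6 h gave -0.681 for the sodium-bicarbonate cotransporter Slc4a7 (SE 0.216, adjusted p = 0.0344) and -1.02 for the adaptor Slc4a1ap (SE 0.212, adjusted p = 0.00026). Slc4a1ap kept its call whichever run was left out, and Slc4a7 lost it without run A, B or C. Slc12a2 was lower with insulin at 24 h, by -0.455 (SE 0.143, adjusted p = 0.0466), and lost that call without run A, B or C and in the fit with no replicate block. At 24 h 25 mM glucose gave 0.517 for the sodium-proton exchanger Slc9a5 (ended without run D) and -0.435 for the endosomal one Slc9a9 (ended without run A or C). Slc4a4, an electrogenic sodium-bicarbonate cotransporter, had the largest fall with time of all members: its median was -0.757 at 24 h and 0.525 at 6 h, and the difference was -1.34 (SE 0.143, adjusted p = 1.87e-15), negative in every run.

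**Figure D3:**
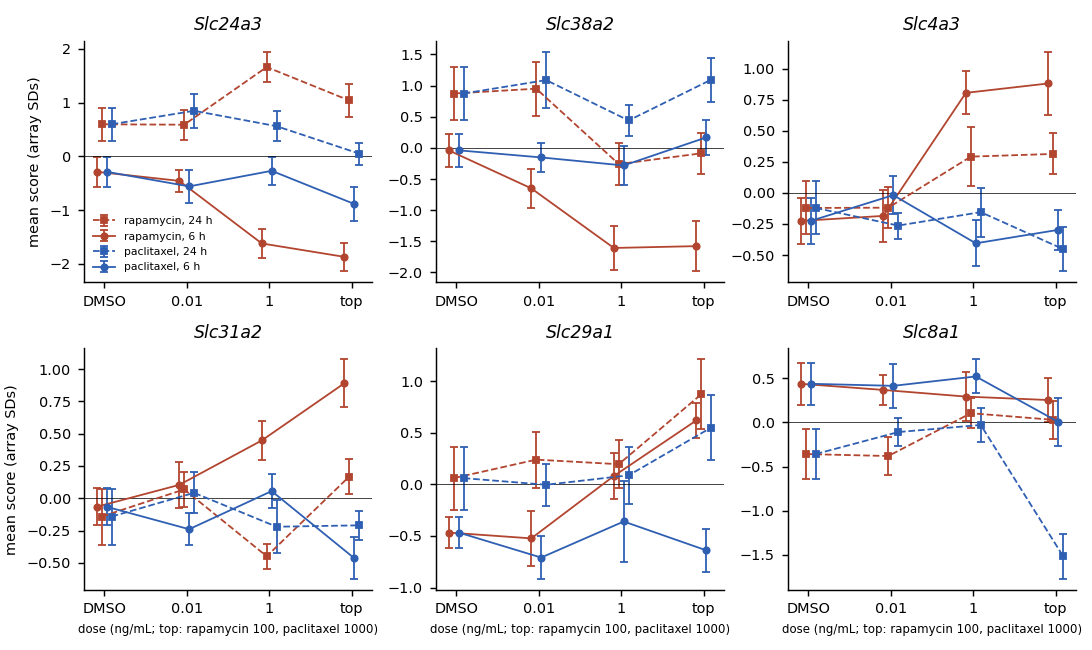
Mean scores (array SDs) ± standard error of 16 arrays for 6 members at each dose of rapamycin (red) and paclitaxel (blue), at 24 h (dashed) and 6 h (solid), with DMSO at the left; the vertical scales differ between panels. At 6 h Slc24a3 and Slc38a2 lie low and Slc4a3 high at 1 and 100 ng/mL rapamycin, and Slc8a1 lies low at 1000 ng/mL paclitaxel at 24 h.

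The 100 and 1 ng/mL doses of rapamycin were not told apart for any member. Set directly against each other they called 0 members at 6 h (0.0518% of features, 0.0432% higher and 0.00864% lower; 3 members with an unadjusted p under 0.05) and 0 at 24 h (0.0346% of features, 0.0259% higher and 0.00864% lower; 9 such members). Nor was the rapamycin difference called different between hours (0 members, 0.095% of features; 8 at an unadjusted p under 0.05), or between insulin and vehicle (0 members and 0% of features at either hour; 4 members at 6 h and 2 at 24 h at an unadjusted p under 0.05). Unadjusted counts over all features were not taken for these comparisons. A p that misses the threshold does not show that the doses acted alike.

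Where fewer than 3 members were called, those next in p are given as values, none past the threshold. For 1 ng/mL rapamycin at 6 h they were, after Slc38a2, the fatty acid protein Slc27a1 (0.738, adjusted p = 0.0794) and Slc6a6 (-1.53, adjusted p = 0.107). At 24 h they were Slc6a6 (-1.52, adjusted p = 0.115), Slc24a3 (1.06) and the monocarboxylate carrier Slc5a8 (0.483, adjusted p = 0.155). Paclitaxel at 1000 ng/mL gave the lysosomal sialic acid carrier Slc17a5 (0.681, adjusted p = 0.184), Slc4a1ap (0.652, adjusted p = 0.214) and the CMP-sialic acid carrier Slc35a1 (-0.835, adjusted p = 0.31) at 6 h. At 24 h, after Slc8a1, it gave Slc25a29 (-0.727, adjusted p = 0.172), Slc2a2 (-0.772, adjusted p = 0.217) and Slc25a30 (0.835, adjusted p = 0.262).

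Metal carriers held 14 members, 8 of them called. Slc31a2, a copper transporter of endosomes and lysosomes, had the rapamycin difference with the smallest adjusted p at 6 h. Its lowest, median and highest scores were -0.362, 0.789 and 2.50 at 100 ng/mL rapamycin, against -1.37, 0.061 and 0.821 in DMSO. The rapamycin arm lay high, with 8 of 16 arrays above every DMSO array. The difference was 0.956 (SE 0.214, adjusted p = 0.00144), between 0.611 and 1.23 in the 4 runs and between 0.793 and 1.18 in the 4 combinations of insulin and glucose. It was the only one of the 9 rapamycin calls at 6 h that held whichever run was left out. At 1 ng/mL the mean was 0.447, against -0.0663 in DMSO, and at 24 h 0.168 at 100 ng/mL against -0.142 in DMSO.

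Against 1000 ng/mL paclitaxel, whose lowest, median and highest scores were -1.71, -0.438 and 0.402, Slc31a2 under rapamycin was 1.35 higher (SE 0.214, adjusted p = 5.13e-07), with 11 of 16 arrays above all paclitaxel arrays. At 6 h it was also 0.480 higher at 25 than at 5 mM glucose (SE 0.114, adjusted p = 0.00314), within 0.449 and 0.549 in the 4 runs; the call ended without run D (adjusted p = 0.0929). Slc41a3, of a magnesium transporter family, was 0.783 higher with rapamycin at 6 h (SE 0.247, adjusted p = 0.0403) and 0.901 higher than with paclitaxel (adjusted p = 0.00981). Its second probe was not called (0.238, adjusted p = 0.860) and correlated with the first at -0.0399, and without run A, C or D the first lost its calls as well.

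Zinc exporters differed in other comparisons. At 24 h the vesicular Slc30a2 was 1.09 higher with rapamycin than with paclitaxel (SE 0.356, adjusted p = 0.0409) and the Golgi Slc30a7 was 0.479 higher (SE 0.160, adjusted p = 0.0494). Both calls ended without run A, C or D. Slc30a5, which loads zinc into the secretory pathway, was higher with insulin at 6 h: its median was 0.440 in insulin arrays and -0.0175 in vehicle arrays, and the difference was 0.912 (SE 0.257, adjusted p = 0.0126), positive in all runs; it ended without run A or C. The lowest array was -1.22 with insulin and -6.41 with vehicle. The insulin difference of Slc30a5 was -1.30 at 24 minus 6 h (adjusted p = 0.0291). Of 7 metal-binding and uptake genes measured as companions, 3 rose with insulin at 6 h, against 3.59% of features. They were the transferrin receptor Tfrc (1.45), ferritin heavy chain Fth1 (0.609) and haem oxygenase Hmox1 (0.960). In runs A to D Tfrc had 1.43, 0.263, 2.02 and 2.10, and Fth1 0.332, 0.470, 1.20 and 0.429. Hmox1 had 1.62, 0.213, 2.01 and -0.000786. With the 4 runs as replicates, insulin at 6 h called 0 features. The iron carrier Slc11a2 was not called with insulin (-0.0960) and was 0.407 higher at 24 than at 6 h (SE 0.0989, adjusted p = 0.000297).

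Mitochondrial carriers and relatives held 14 members, 9 of them called. Slc25a25, a calcium-sensitive carrier that exchanges ATP-magnesium for phosphate, was 1.03 higher at 6 h with 100 ng/mL rapamycin than with DMSO (SE 0.256, adjusted p = 0.00521). Its median was 0.764 with rapamycin and -0.305 with DMSO, and 10 of 16 rapamycin arrays lay above every DMSO array. The call ended without run A, C or D (adjusted p up to 0.100). It was 0.964 higher than with paclitaxel (adjusted p = 0.0072), a call that ended without run C or D. The basic amino acid carrier Slc25a29 was the member called with 100 ng/mL rapamycin at 24 h, at a median of -0.506 against 0.446 in DMSO. Its difference was -0.995 (SE 0.257, adjusted p = 0.0137), between -1.43 and -0.686 in the runs, and it ended without run A, C or D. Next in adjusted p there were the cystine carrier Slc7a9 (0.895, adjusted p = 0.134), the lactate carrier Slc16a1 (0.700, 0.135) and the fatty acid protein Slc27a1 (0.637, 0.137), none past the threshold; 12 members had an unadjusted p under 0.05.

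Slc25a5, an adenine nucleotide translocase that exchanges ADP and ATP over the inner membrane, had the insulin difference with the smallest adjusted p at 6 h. Its lowest, median and highest scores were -1.51, 0.737 and 2.72 over the insulin arrays, against -1.98, -0.213 and 1.69 over the vehicle arrays. The arms overlapped widely, with the insulin arm high in each run (1.45, 0.677, 0.974 and 0.270). The difference was 0.843 (SE 0.139, adjusted p = 1.79e-06), and it was the only insulin call that held whichever run was left out, though it too ended with the 4 runs as replicates. At 24 h it was 0.0678, and the change with the hour was -0.775 (adjusted p = 0.0125). The isoform Slc25a4 was not called (0.0324 at 6 h, adjusted p = 0.94). Slc25a17, a peroxisomal carrier of cofactors, was -0.332 at 25 against 5 mM glucose at 24 h (SE 0.112, adjusted p = 0.0394), and leaving out any run ended that call.

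Choline and nucleoside carriers gave the largest change with time. Slc44a1, a choline transporter, had a lowest, median and highest score of -2.42, 1.10 and 4.25 over 112 arrays at 24 h, against -4.54, -0.932 and 2.13 at 6 h. The ranges overlapped, with the later arrays high in every run. Its difference of 2.26 (SE 0.146, adjusted p = 1.74e-31) was the largest of the 138, 1.40 to 2.98 by run, and the hour held 43.9% of its variance over arrays. The second Slc44a1 probe was also higher at 24 h (0.801, adjusted p = 4.58e-07). The relative Slc44a2 was 0.714 higher (SE 0.115, adjusted p = 4.51e-08), with run B at -0.238.

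Insulin raised both at 24 h. Slc44a1 had a median of 1.56 with insulin and 0.640 with vehicle, a difference of 0.965 (SE 0.207, adjusted p = 0.000998) that was positive in all runs and in 6 of 7 drug conditions, DMSO at -0.169 being the exception. Slc44a2 had medians of 0.783 with insulin and -0.029 with vehicle, a difference of 0.831 (SE 0.163, adjusted p = 0.000241), positive in all 7 drug conditions. Both calls ended without run A or run C (adjusted p up to 0.094 and 0.213), and the second Slc44a1 probe was not called (0.272, adjusted p = 0.591). At 24 minus 6 h the insulin difference was 1.42 for Slc44a1 (adjusted p = 0.00162) and 0.926 for Slc44a2 (adjusted p = 0.0102). Such a change with the hour was called for 5 members (3.62%; 2 higher, 3 lower), against 2.12% of features (1.14% higher, 0.976% lower), the others being Slc30a5, Slc25a5 and the phosphate carrier Slc20a2 (-0.841, adjusted p = 0.00673). None of the 5 held without run A or without run C.

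Slc29a1, the equilibrative nucleoside transporter that carries adenosine, was higher with rapamycin at 6 h. Its lowest, median and highest scores were -0.385, 0.703 and 1.69 at 100 ng/mL, against -1.19, -0.360 and 0.836 in DMSO. The difference was 1.09 (SE 0.345, adjusted p = 0.0416), between 0.938 and 1.25 in the runs, with 7 of 16 rapamycin arrays above all DMSO arrays; leaving out any run, or the replicate block, ended the call. Against paclitaxel it was 1.26 (SE 0.345, adjusted p = 0.00981), ending without run B or C. With insulin at 24 h it was -0.681 (SE 0.184, adjusted p = 0.015), with -1.55, -0.251, -1.38 and 0.458 in runs A to D, and without run A or C it was not called.

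Sugar, lipid and organic ion carriers supplied the remaining rapamycin calls. The intracellular glucose transporter Slc2a8 was 0.896 higher at 6 h with 100 ng/mL rapamycin (SE 0.273, adjusted p = 0.0324), but leaving out any run ended the call; against paclitaxel it was 0.893 (adjusted p = 0.026), ending without run A, C or D. By combination that difference was -0.512 with insulin in 25 mM glucose, 2.13 with insulin in 5 mM, 0.692 with vehicle in 25 mM and 1.27 with vehicle in 5 mM. The carnitine importer Slc22a5 was 1.08 higher (SE 0.301, adjusted p = 0.0169), with medians of 0.489 under rapamycin and -0.550 under DMSO, and 10 of 16 rapamycin arrays above every DMSO array. It lost the call without run C or D (adjusted p up to 0.234). With 1 ng/mL at 24 h the acetyl-CoA transporter Slc33a1 was -1.09 (SE 0.272, adjusted p = 0.0147); its second probe gave -0.341 (adjusted p = 0.651), and the call ended without run B, C or D. The insulin-responsive glucose transporter Slc2a4 was called in none of the 13 comparisons, with 0.00613 for insulin at 6 h and -0.150 at 24 h.

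Slc27a3, of the fatty acid transport protein family, differed in 4 comparisons. Insulin gave 0.744 at 6 h (SE 0.187, adjusted p = 0.00406) and 0.932 at 24 h (SE 0.187, adjusted p = 0.000343), with medians at 24 h of 0.0785 with insulin and -1.12 with vehicle. By run the 24 h values were 1.11, -0.0566, 2.21 and 0.463 (adjusted p = 0.00766 for unequal runs), and both calls ended without run A or C. It was -1.25 for rapamycin against paclitaxel at 6 h (SE 0.349, adjusted p = 0.0118), ending without run A or C too, and -1.05 for time (SE 0.132, adjusted p = 4.58e-12). The other insulin calls at 6 h were the glial glutamate carrier Slc1a3 (0.731), Slc20a2 (0.514) and the glucose-6-phosphate transporter Slc37a4 (0.411), and at 24 h Slc35b2 (0.388), which brings sulfate donor into the Golgi; Slc1a3, Slc20a2 and Slc35b2 ended without run A or C and Slc37a4 without run A or B. In DMSO cells alone insulin called 0 members and 0% of features at either hour. Each time 6 members had an unadjusted p under 0.05, a count not taken over all features.

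**Figure D4:**
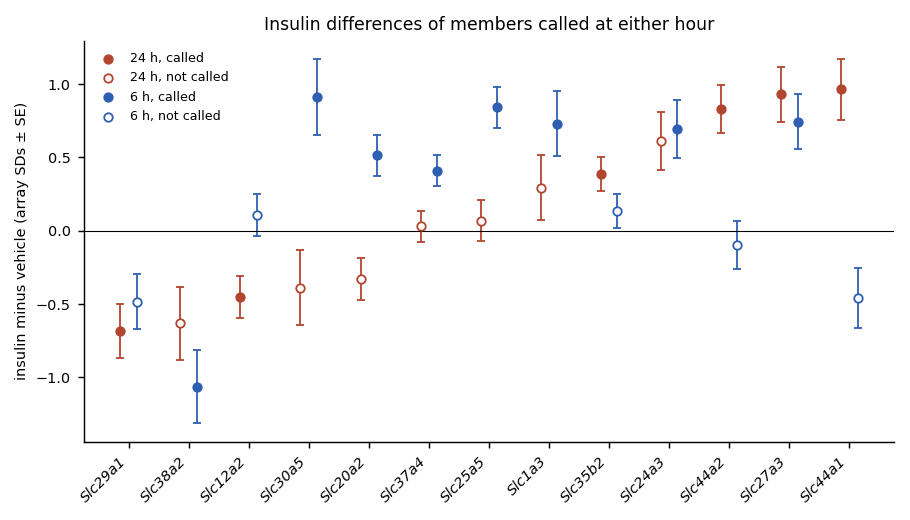
Insulin minus vehicle differences (array SDs ± SE) at 24 h (red) and 6 h (blue), averaged over the 7 drug conditions, for the 13 members called at either hour; filled points were called. Slc44a1 and Slc44a2 are filled at 24 h and open and below 0 at 6 h, Slc25a5, Slc20a2 and Slc30a5 are filled at 6 h and open at 24 h, and Slc27a3 is filled at both.

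In the drug against drug comparison at 24 h, 4 further members were called. The liver-type glucose transporter Slc2a2 was 0.988 higher with rapamycin than with paclitaxel (adjusted p = 0.0185) and Slc44a2 0.986 higher (adjusted p = 0.0279). Slc22a17, a receptor for lipocalin-bound iron, was -1.32 (adjusted p = 0.013), and Slc38a10, of the neutral amino acid family, -0.659 (adjusted p = 0.0437). The call of Slc2a2 ended without run A, C or D, that of Slc44a2 without run C or D, that of Slc22a17 without run A or C and that of Slc38a10 without run A or D. With 25 against 5 mM glucose at 24 h, higher members also included Slc6a6 (0.993, SE 0.273), Slc22a17 (0.657), Slc35e3 (0.654, SE 0.119, adjusted p = 1.66e-05), Slc38a10 (0.530) and the creatine carrier Slc6a8 (0.498). Slc35e3 and Slc38a10 were positive in every run and every drug condition and held whichever run was left out, while Slc6a6 ended without run D, Slc22a17 without run B or D, and Slc6a8 without run A, B or C. In DMSO cells alone glucose called 0 members at 6 h (0.0346% of features) and 0 at 24 h (0.285%). At an unadjusted p under 0.05 there were 3 and 14 members, counts not taken over all features.

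Time, 24 against 6 h, moved carriers of every role. Of the 9 nucleotide sugar and acetyl-CoA members 1 was higher and 4 lower, and of the 14 mitochondrial ones 5 were higher and 3 lower. Of all features 41.3% were called (19.5% higher, 21.8% lower). Among the 12 largest rises were also Slc6a6 (1.20, with run B at -0.0825), Slc25a33 (0.999), Slc33a1 (0.635), Slc29a1 (0.571) and the citrate carrier Slc13a5 (0.500). Slc25a33 had run values of -0.0608, 2.52, -0.365 and 1.90. Among the 12 largest falls were Slc35e3 (-0.965, SE 0.0844, adjusted p = 8.55e-21), the glucose transporters Slc2a6 (-0.745) and Slc2a8 (-0.686), Slc35b2 (-0.672), Slc25a5 (-0.602), Slc41a2 (-0.538), Slc4a11 (-0.478), Slc20a2 (-0.477) and Slc35b4 (-0.442). Slc2a6 had run D at 0.953 against -1.58, -0.498 and -1.85, and it lost its call without run A or C, as did Slc41a2. The second Slc2a6 probe was not called (-0.0939, adjusted p = 0.575) and correlated with the first at 0.155. Slc13a5 and Slc29a1 lost theirs without run D, and Slc35b4 without run A, B or C.

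Of the 50 time calls, 26 held whichever run was left out, and 36 to 42 held when a given one was. In DMSO cells alone 10 members were called between the hours (7.25%, 4 higher and 6 lower), against 7.24% of features (4.31% higher, 2.93% lower). Of these, Slc44a1 (2.10) and Slc35e3 (-1.07) held whichever run was left out, but not with the 4 runs as replicates. Over all arrays the smooth muscle markers Myl9 (-2.68), Tagln (-1.73) and Cnn1 (-0.617) were lower at 24 h as well, 3 of 6 measured, against 21.8% of features. The fibroblast markers Dcn (1.22) and Pdgfra (0.856) were higher, 2 of 3 measured, against 19.5% of features. The part of these markers in the carriers' changes was not tested.

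**Figure D5:**
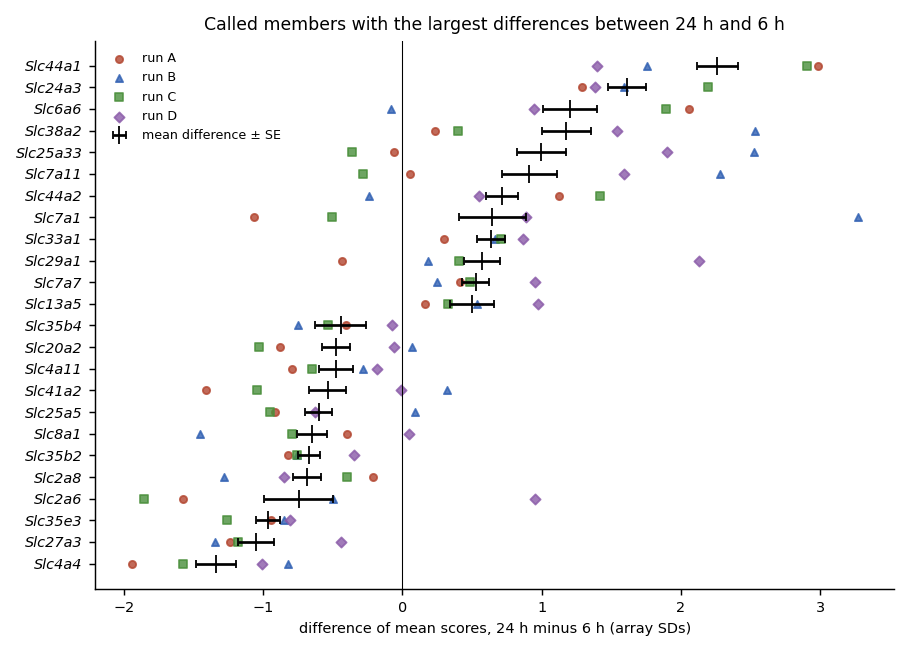
Differences of mean scores, 24 h minus 6 h (array SDs), for the 12 largest rises and the 12 largest falls among called members, with the mean ± SE as a black bar and each replicate run as a coloured symbol. Slc44a1 and Slc24a3 lie right of 0 and Slc4a4, Slc27a3 and Slc35e3 left of it in all 4 runs, while Slc7a1, Slc25a33 and Slc2a6 have runs on both sides.

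Among other companions of the carriers, 1 of 4 ion pump genes differed between rapamycin and paclitaxel at 24 h, the sodium pump subunit Atp1b3 (-1.42). With time 2 of 4 fell, the calcium pump Atp2a2 (-0.264) and the copper pump Atp7a (-0.461), against 21.8% of features lower. Of 4 chaperones and scaffolds, basigin (Bsg), which escorts lactate carriers, was -0.473 at 25 against 5 mM glucose at 24 h, Arl6ip5, a regulator of glutamate transport, was 0.702, and embigin (Emb) was -0.704 for rapamycin against paclitaxel at 24 h; Bsg (0.286) and Emb (0.452) were higher with time. Of 4 kinases and ligases, Oxsr1, which activates sodium-potassium-chloride cotransport, was 0.933 for rapamycin against paclitaxel at 6 h and 0.494 with glucose at 24 h, and with time Oxsr1 (-0.695) and the kinase Akt1 (-0.445) were lower. Over all features, 6.72% were called for rapamycin against paclitaxel at 6 h and 6.62% at 24 h. Glucose at 24 h called 10% of features and time 41.3%.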

How the data were processed

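RNA of the cells, per the labels, was labelled with Cyanine-5 and hybridised beside Cyanine-3 RNA of pooled newborn pups. The table of scores that the authors deposited covers 11575 features on 224 arrays and was made, per the design text, by loess normalization, a filter on intensities under 30 and under 70% good data, imputation from 3 neighbours, removal of principal components tied to the runs, and standardization. Its log base is not given in the sources used here. Labels and design text differ on dish size, serum and the length of quiescence.

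A linear model of 56 group means with run as block was fitted by limma 3.58.1 (R 4.3.3), as planned for log2 ratios (165 residual degrees of freedom; median residual SD 0.811, 0.802 for members), eBayes and Benjamini-Hochberg adjustment within each comparison, two-sided, at 0.05. The pairing by run comes from the labels, which name replicate runs. Each drug comparison is a mean over the 4 insulin and glucose settings, and each insulin or glucose comparison a mean over the 7 drug conditions. Equality of run values (limma's F test) and the change of glucose differences with the hour were tests added after seeing the data. Members' roles follow their families. The rule for named genes takes the 12 largest called rises and 12 largest called falls in a comparison, the 3 smallest adjusted p values where under 3 were called, and a list of carriers given whatever their result. The members and lists were chosen with earlier results of these data known. Alternatives were other blocks, median and MAD scaling, compared groups alone, the mean of a gene's probes, run means as the unit and each run left out. The procedure was tested on simulated scores with independent errors and no run differences, so that test cannot show how runs affect the calls. Background and scanner intensities were not used here. Arrays limit the precision by their number.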

Additional observations from a re-analysis of the deposited data

Results flagged for a closer look

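The run values of each called member were compared within a comparison, and in 7 of 114 sets of 4 runs 1 run stood apart from the other 3, which chance gives in about 1 set in 20. Slc29a1 had 1.66 in run D for rapamycin against paclitaxel at 6 h, and Slc31a2 had 0.549 in run D for 25 against 5 mM glucose at 6 h. Slc25a17 had -0.353 in run C for 25 against 5 mM glucose at 24 h. For 24 against 6 h, Slc6a8 had 0.532 and Slc35b2 -0.349 in run D, and Slc16a6, a monocarboxylate carrier, had -0.0627 and Slc38a3, a glutamine carrier, -0.778 in run C.

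Differences that changed with the hour by an interaction test were the other values that stood out. The insulin difference at 24 minus 6 h was 1.42 for Slc44a1, 0.926 for Slc44a2, -1.30 for Slc30a5, -0.841 for Slc20a2 and -0.775 for Slc25a5. The difference between 25 and 5 mM glucose at 24 minus 6 h was -1.99 for Slc25a33, -1.98 for Slc7a1, -1.70 for Slc7a11, -1.24 for Slc3a2, -1.01 for Slc7a7 and 0.570 for Slc35e3.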

How the results depend on the processing

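Of 135 called member results, 1 turned its direction under an alternative that was run: Slc7a1 for 24 against 6 h was -0.229 without run B and up to 1.218 without another run; the cause was not tested. The fit with no replicate block kept 131 of the 135 calls, median and MAD scaling 131, the mean of probes 130 and the run by hour block 135, while run means as the unit kept 12 and the compared groups alone kept 60 and lost 14. With run means as the unit, members called were 2 for 100 ng/mL rapamycin at 6 h, 5 for rapamycin against paclitaxel at 6 h, 1 for glucose at 6 h, 5 for time, and 0 for 100 ng/mL rapamycin at 24 h, 1 ng/mL at both hours, 1000 ng/mL paclitaxel at 24 h, the drugs at 24 h, insulin at both hours, glucose at 24 h, insulin and glucose by hour, and time in DMSO; 9 to 32 members then had an unadjusted p under 0.05. Compared groups alone gave 0 for 100 and for 1 ng/mL rapamycin and for paclitaxel at 24 h, 4 for the drugs at 24 h, 13 for insulin and 5 for glucose at 6 h. The mean of probes gave 1 for 1 ng/mL rapamycin at 6 h and 0 at 24 h, and 1 over the 16 secondary comparisons that otherwise called 0. In those 16 the run by hour block gave 3. For 1 ng/mL rapamycin the mean of probes called 163 averaged features at 6 h and 159 at 24 h. Leaving out each run gave 2 to 7 for 100 ng/mL rapamycin at 6 h and 0 to 1 at 24 h, 0 to 3 for 1 ng/mL at 6 h and 0 to 2 at 24 h, 0 to 1 for paclitaxel at 24 h, 5 to 9 and 2 to 7 for the drugs at 6 and 24 h, 2 to 11 and 0 to 8 for insulin, 1 to 4 and 8 to 15 for glucose, 0 to 6 and 0 to 8 for insulin and glucose by hour, 44 to 45 for time, 4 to 10 for time in DMSO and 0 to 1 for the other secondary comparisons. Counts over all features moved too. Without each run in turn, 100 ng/mL rapamycin called 212 to 482 features at 6 h and 97 to 193 at 24 h. At 1 ng/mL there were 53 to 162 and 44 to 166, and for paclitaxel at 24 h 35 to 177. Rapamycin against paclitaxel had 380 to 668 at 6 h and 392 to 593 at 24 h, and time in DMSO 354 to 918. Leaving out each run gave 164 to 1094 features for insulin at 6 h and 6 to 682 at 24 h. For glucose it gave 226 to 319 at 6 h and 573 to 1145 at 24 h. Insulin and glucose by hour had 9 to 355 and 13 to 367, and time 4022 to 4614. With run means as the unit, 163 features were called for 100 ng/mL rapamycin at 6 h. Rapamycin against paclitaxel then had 265 at 6 h and 360 at 24 h. There were 59 for 100 ng/mL rapamycin at 24 h, and 9 at 6 h and 0 at 24 h for 1 ng/mL. Paclitaxel at 24 h had 46, time in DMSO 5, and insulin and glucose by hour 0. Member signals over background were not used, so depth limits cannot be given.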

Other observations

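The members whose scores varied most over the arrays were the fructose transporter Slc2a5, with an SD of 2.05, and the lysosomal peptide and histidine carrier Slc15a3, with 2.01, and neither was called in a main comparison. The SD over arrays ran from 0.476 to 2.05 over the members, with a median of 0.834, against a median of 0.856 over all features.

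Probes that were not the first of their gene gave calls which the first did not. The third probe of the thiamine transporter Slc19a2 was 1.57 higher at 24 h with 1000 ng/mL paclitaxel than with DMSO (adjusted p = 0.000108), -1.79 for rapamycin against paclitaxel, and 0.800 for 25 against 5 mM glucose at 6 h. The second probe of the zinc importer Slc39a3 was -0.844 for 24 against 6 h (adjusted p = 1.83e-17), that of the haem transporter Slc48a1 was 0.781 for 25 against 5 mM glucose at 24 h (adjusted p = 0.0002), and that of Slc33a1 was -1.22 for rapamycin against paclitaxel at 6 h (adjusted p = 0.00111). The second probe of Slc66a2 was -0.855 for 100 ng/mL rapamycin at 24 h (adjusted p = 0.0411). These probes were chosen after their values were seen.

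Of the ATF4 axis, 6 of 10 genes measured were lower at 6 h with 100 ng/mL rapamycin than with 1000 ng/mL paclitaxel, against 2.74% of features lower there. Against DMSO the list's median was -0.0195 with rapamycin (0 called) and 1.23 with paclitaxel (1 called, higher), and in the comparison of the drugs -1.44. The 6 differences ran from -2.59 for Trib3 to -1.35 for Eif2ak3. In that comparison Slc38a2 was -1.75 (adjusted p = 0.00811), a call that ended without run A or D, while Slc7a1, Slc7a11 and Slc3a2 were not called.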
